A study of Mus musculus with 23 samples.

Results

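Complement is a cascade of plasma and cell-surface proteins that marks microbes, dying cells and debris for removal. In the classical pathway C1q, built from the chains encoded by C1qa, C1qb and C1qc and made largely by macrophages, binds its target and activates the proteases C1r and C1s, which cleave C4 and C2 to form an enzyme that cleaves C3. In the alternative pathway factor B, encoded by Cfb, joins C3b to form a second such enzyme, and the C1 inhibitor Serping1 and the membrane protein Cd55 hold these steps in check. Much of plasma complement comes from the liver, but macrophages, fibroblasts and adipocytes also transcribe complement genes, and adipocytes are the main source of factor D.

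The genes described here are these 9 components and regulators, chosen by symbol: C1qa, C1qb, C1qc, C4b, C2, C3, Cfb, Serping1 and Cd55. All 9 were present in both count tables, among 12831 genes in quadriceps and 16962 genes in epididymal fat. A further 48 complement genes were listed by role, of which 22 were in the quadriceps table and 37 were among the fat genes.

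RNA was sequenced from male C57BL/6J mice that were 8 weeks of age at surgery, in 3 groups: sham mice without a tumor (no tumor), mice with KPC pancreatic cancer cells in the pancreas (KPC), and mice with KPC cells whose Il6 gene had been edited (KPC IL6KO). KPC cells are a line from a mouse pancreatic tumor driven by Pdx1-Cre. Quadriceps gave 3 no tumor, 4 KPC and 4 KPC IL6KO libraries and epididymal fat gave 4 of each, 1 library per mouse and 23 in all. The comparisons ask how complement transcripts in wasting muscle and fat differ with a tumor, and how that depends on tumor cell Il6. Each tumor line was 1 clone, so a difference between KPC and KPC IL6KO cannot be told apart from a difference between clones. The study also reported larger tumors in KPC than in KPC IL6KO mice, so tumor size cannot be told apart either. The hosts carried an intact Il6 gene, so Il6 in tissue does not check the label. In fat Il6 ranged from 0 to 0.0632 CPM without a tumor, from 2.02 to 5.30 CPM with KPC and from 0.0343 to 4.77 CPM with KPC IL6KO tumors. All mice were killed when the KPC group reached its endpoint, and muscle and fat libraries came from different mice and separate preparations.

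Libraries held 19259763 to 74907810 counts in quadriceps and 26306377 to 56308545 in fat. Values are CPM, the reads of a gene as parts per 1e6 of its library after scaling by the trimmed mean of M values (TMM). A gene was called when edgeR's quasi-likelihood test gave a false discovery rate (FDR, Benjamini-Hochberg over all genes of the tissue) of at most 0.05 and the fold change was at least 1.5. The biological coefficient of variation was 22.7% in quadriceps and 63.5% in fat. Muscle fiber genes took 130155 to 203167 CPM in quadriceps, and adipocyte genes 1243 to 21989 CPM in fat. The fat libraries also held 777 to 110066 CPM of epididymis genes. Nearly all of Gpx5, an epididymis gene, lay in 7 fat libraries, at 21347 to 54957 CPM. These were the 4 KPC libraries, no tumor 5 and 7, and KPC IL6KO 6. In the other 5 it was at 4.69 to 85.8 CPM, and 4 of those (no tumor 6 and 8, KPC IL6KO 7 and 8) held 9432 to 14517 CPM of another epididymis gene, Crisp1. Values set by this split are given with the fat results.

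The 3 C1q genes lie side by side on the minus strand of mouse chromosome 4 (GRCm38): C1qb at chr4:136880129-136886187, C1qc at chr4:136889804-136893065 and C1qa at chr4:136895917-136898803. C4b (chr17:34728380-34743882), Cfb (chr17:34856374-34862518) and C2 (chr17:34862604-34898265) share the major histocompatibility region of chromosome 17, and C3 lies apart from them on the same chromosome (chr17:57203970-57228136). Serping1 is on chromosome 2 (chr2:84765387-84775444) and Cd55 on chromosome 1 (chr1:130439027-130462744), where the antisense gene Gm16083 overlaps it. Some of these transcripts share sequence with others, so reads could be split or discarded. Of all stretches of 75 bases, 81.2% of Cfb and 55.6% of C2 also occur in Gm20547, a gene model that joins both, 23.5% of C4b occur in C4a, and 9.39% of Cd55 occur in Cd55b. C1qa, C1qb, C1qc, C3 and Serping1 shared no such stretch with another gene.

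RefSeq start-site windows (GRCm38.p6, 250 bases before to 50 after the start) were matched for C1qb, C1qc, C3 and Cd55. Cd55 is shown as the one gene called in KPC quadriceps that has a window, and C3, chosen after the search, as the one window with a match to the motifs. Capitals mark that match.
Cd55, minus strand, chr1:130462695-130462994: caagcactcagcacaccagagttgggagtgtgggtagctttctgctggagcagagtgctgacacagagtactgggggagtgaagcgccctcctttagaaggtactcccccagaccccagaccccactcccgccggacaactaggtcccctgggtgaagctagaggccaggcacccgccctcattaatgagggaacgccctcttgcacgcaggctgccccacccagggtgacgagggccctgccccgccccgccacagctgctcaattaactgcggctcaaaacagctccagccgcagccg
C3, minus strand, chr17:57228087-57228386: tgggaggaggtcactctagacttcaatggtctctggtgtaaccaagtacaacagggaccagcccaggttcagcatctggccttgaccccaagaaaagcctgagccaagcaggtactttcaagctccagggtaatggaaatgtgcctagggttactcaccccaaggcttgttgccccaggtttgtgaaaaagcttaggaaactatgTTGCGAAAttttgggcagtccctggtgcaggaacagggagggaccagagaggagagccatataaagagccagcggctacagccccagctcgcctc

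Both strands were searched for TTCNNNGAA (STAT), TTGCNNAA (CEBP), GGGANNTTC (NF-kB) and GAAANNGAA (interferon response). The CEBP letters occurred once in C3, as TTGCGAAA beginning at position -45 from the start site, and none of the 4 motifs occurred in the windows of Cd55, C1qb or C1qc. Of 32851 mouse windows of this length, 8.30% held the STAT, 10.8% the CEBP, 3.94% the NF-kB and 8.56% the interferon response letters. A letter match is a description and not a binding site.

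In quadriceps of tumor-free mice, expressed per kilobase of coding transcript, Serping1 had the highest level (34.8 ± 7.71 CPM per kb, SD, n = 3) and C3 the next (25.3 ± 5.27). C1qa (15.2 ± 3.30), C1qb (15.1 ± 3.85), C1qc (13.05 ± 3.71) and Cd55 (12.4 ± 2.48) followed, and their ranges of 1 SD around the mean overlapped. C4b (6.11 ± 2.51), Cfb (5.16 ± 2.31) and C2 (2.65 ± 1.22) were the lowest. These are also the members that share the most sequence with other genes, and the part of lost reads in their rank was not tested. No gene of the 9 had fewer than 48 counts in any quadriceps library, well above the 3 counts at which a level is not told from 0.

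With a KPC tumor, 4 of the 9 genes fell in quadriceps and none rose: C2, Cfb, Cd55 and Serping1. All 3 C1q genes, C3 and C4b did not pass the test. Over all genes tested, 29.0% fell and 26.7% rose in this comparison, so 4 of 9 falling is to be read against 29.0%. The median log2 fold change of the 9 was -0.37, against -0.03 over all genes. KPC and no tumor did not overlap for 3 of the 9 members (C2, Cfb and Cd55), where 65.3% of all genes did not.

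**Figure D1:**
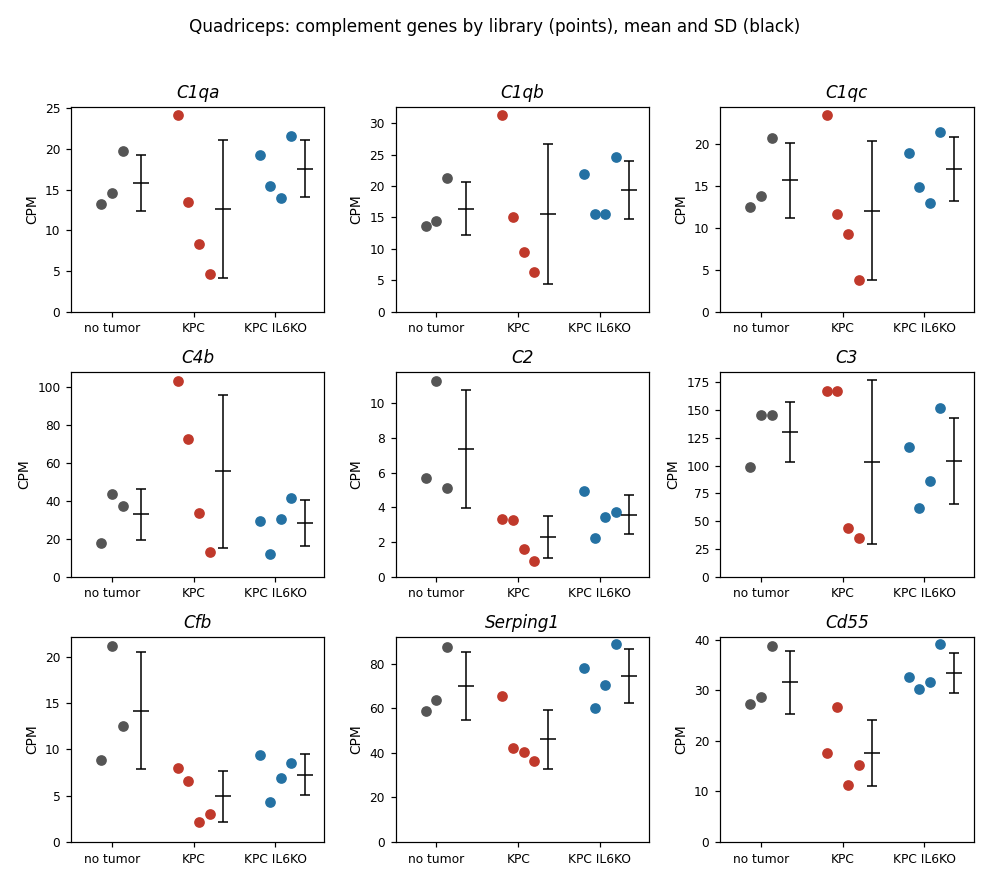
Quadriceps CPM of the 9 complement genes in each library, by group (3 no tumor, 4 KPC, 4 KPC IL6KO); each point is 1 mouse, and black bars give the mean and SD. KPC points for C2, Cfb and Cd55 lie under every no tumor point, where 65.3% of all genes did not overlap between these groups. The KPC points of the C1q genes, C3 and C4b spread to both sides of the no tumor points.

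C2, the classical pathway serine protease that C4b holds at a surface, was at 5.70, 11.3 and 5.12 CPM in no tumor 1 to 3, at 3.31, 3.25, 1.60 and 0.903 in KPC 1 to 4, and at 4.92, 2.23, 3.41 and 3.72 in KPC IL6KO 1 to 4. Every KPC and every KPC IL6KO library was under every no tumor library. Between KPC IL6KO and no tumor 15.5% of all genes did not overlap. C2 fell by 1.70 on the log2 scale in KPC (SE 0.44, FDR 0.00454, 3.25-fold lower). In KPC IL6KO the log2 fold change was -1.05 (95% interval -1.99 to -0.11), which was not called (FDR 0.605). Without no tumor 2, the highest library, the KPC log2 fold change was -1.25.

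Cfb, which supplies the protease of the alternative pathway, followed the same order of groups. No tumor libraries held 8.81, 21.2 and 12.6 CPM, KPC libraries 7.95, 6.57, 2.16 and 3.01, and KPC IL6KO libraries 9.39, 4.28, 6.91 and 8.49. KPC and no tumor did not overlap, and Cfb fell by 1.53 on the log2 scale (SE 0.44, FDR 0.00932, 2.88-fold lower). This call rested on no tumor 2: without it the log2 fold change was -1.11 at an FDR of 0.0619. In KPC IL6KO the log2 fold change was -0.97 and was not called (FDR 0.717). KPC 3 and 4 had the lowest values of both genes. No tumor 2, with the most C2 and Cfb, also held the most adipocyte marker RNA of the no tumor libraries (2096 CPM against 665 and 968), while KPC libraries held 1718 to 2356 CPM. The KPC sum was carried by Pnpla2, which rose by 2.15 on the log2 scale (FDR 1.01e-05); the other 7 of the 8 adipocyte markers had negative log2 fold changes, and Lep (-2.70) and Lipe (-1.28) fell. The part of adipocytes in this result was not tested.

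Cd55, which speeds the decay of the C3-cleaving enzymes on the cell's own membrane, was the member whose level set KPC apart from both other groups. It was at 27.2, 28.6 and 38.7 CPM in no tumor, 17.5, 26.6, 11.3 and 15.1 in KPC, and 32.7, 30.2, 31.6 and 39.0 in KPC IL6KO. Each KPC library was under each library of the other groups, with KPC 2 just under the lowest no tumor library. Such separation was common: 61.998% of all genes did not overlap between KPC and KPC IL6KO, and 65.3% between KPC and no tumor. Of the 9 members, 1 (Cd55) did not overlap between KPC and KPC IL6KO. Cd55 fell by 0.84 against no tumor (SE 0.24, FDR 0.00876, 1.79-fold lower) and by 0.92 against KPC IL6KO (SE 0.22, FDR 0.00330, 1.89-fold lower) on the log2 scale. It was called in both comparisons without each library in turn, at an FDR of at most 0.0462. The log2 fold change in KPC IL6KO against no tumor was 0.08 (95% interval -0.44 to 0.61).

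Serping1, the inhibitor of C1r and C1s, was at 58.8, 63.7 and 87.8 CPM in no tumor, 65.6, 42.3, 40.3 and 36.3 in KPC, and 78.3, 60.2, 70.5 and 89.2 in KPC IL6KO. KPC 1 lay within the range of both other groups and the other KPC libraries lay under it. Serping1 fell by 0.69 on the log2 scale against KPC IL6KO (SE 0.20, FDR 0.00910, 1.62-fold lower). Against no tumor the fall of 0.60 (SE 0.21, FDR 0.0264, 1.52-fold lower) was only just past the fold threshold. With relative log expression (RLE) scaling it was -0.56, under that threshold, and without no tumor 3 it was -0.41 at an FDR of 0.139. Nor was Serping1 called against no tumor without KPC 2 (FDR 0.0555), KPC 3 (FDR 0.0605) or KPC 4 (FDR 0.0637).

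The C1q genes moved together from library to library. C1qa was at 13.2, 14.6 and 19.7 CPM in no tumor, 24.1, 13.4, 8.28 and 4.61 in KPC, and 19.2, 15.4, 13.97 and 21.6 in KPC IL6KO. KPC 1 was the highest and KPC 4 the lowest of all 11 libraries, and the same held for C1qb (31.2 and 6.23 CPM) and C1qc (23.5 and 3.76 CPM). The ratio of C1qa to C1qb stayed between 0.740 and 1.01 over the 11 libraries, and that of C1qc to C1qb between 0.604 and 0.981.

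The log2 fold change in KPC was -0.32 for C1qa (95% interval -1.24 to 0.60), -0.07 for C1qb (-1.02 to 0.88) and -0.37 for C1qc (-1.35 to 0.61). These intervals do not exclude a change of more than 1.5-fold either way. Without KPC 1 the values were -0.85 (FDR 0.0425) for C1qa, -0.66 (FDR 0.0852) for C1qb and -0.92 (FDR 0.0452) for C1qc. Against KPC IL6KO they were -1.0003 (FDR 0.0159), -0.91 (FDR 0.0196) and -1.05 (FDR 0.0204) without KPC 1, so that 5 members instead of 2 were called.

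C3, on which all pathways converge, was at 98.7, 146 and 145 CPM in no tumor, 167, 167, 44.3 and 35.2 in KPC, and 117, 61.98, 86.5 and 152 in KPC IL6KO. C4b was at 17.8, 43.7 and 37.04 CPM in no tumor, 103, 72.5, 33.8 and 12.8 in KPC, and 29.4, 11.99, 30.3 and 41.3 in KPC IL6KO. KPC 1 and 2 were above every no tumor library for both genes, KPC 3 and 4 were under every no tumor library for C3, and KPC 4 was for C4b. The log2 fold change in KPC was -0.33 for C3 (95% interval -1.45 to 0.78) and 0.76 for C4b (-0.56 to 2.08), and neither was called. Against KPC IL6KO it was -0.01 for C3 and 0.98 for C4b (FDR 0.136), again not called. Without KPC 4, C4b was called higher in KPC than in KPC IL6KO (1.31, FDR 0.0229). The coefficient of variation of C3 among KPC mice was 71.1%, against 20.8% in no tumor and 37.2% in KPC IL6KO.

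No member was called in KPC IL6KO against no tumor by edgeR's quasi-likelihood test, its likelihood ratio test or DESeq2, and 2 of 9 had an unadjusted p under 0.05 by each. Over all genes this comparison gave 0% called in either direction (887 genes under an unadjusted 0.05; 95 called by the likelihood ratio test and 93 by DESeq2). Comparing KPC with KPC IL6KO, 2 of 9 members fell (Cd55 and Serping1) and none rose, beside 27.3% falling and 26.4% rising over all genes. Both tumor groups were compared with the same no tumor mice.

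The other complement genes in quadriceps were mostly lower in KPC. Of 22, 12 fell, none rose and 10 did not pass the test, against 29.0% of all genes falling, with a median log2 fold change of -0.74. Both C1 proteases fell: C1s1 by 1.56 (SE 0.20, FDR 4.43e-05) and C1ra by 1.11 (SE 0.29, FDR 0.00485) on the log2 scale, with C1s1 at 36.8 to 43.2 CPM in no tumor and 8.56 to 17.2 CPM in KPC.

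In the lectin pathway 1 of 4 fell, the membrane collectin Colec12, by 1.48 (SE 0.13, FDR 4.36e-06). In the alternative pathway 1 of 2 fell, the stabilizer properdin (Cfp), by 0.69 (FDR 0.0482). Factor D (Cfd), the most abundant of the pathway, ranged from 202 to 1120.4 CPM in no tumor and from 6.76 to 959 CPM in KPC libraries and was not called. Both measured terminal components fell, C7 by 1.10 (FDR 0.0489) and C8g by 1.53 (FDR 0.0131).

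Regulators fell as well. Of the fluid-phase regulators 2 of 3 fell, vitronectin (Vtn) by 1.22 (FDR 0.000913) and clusterin (Clu) by 0.77 (FDR 0.0470) on the log2 scale. Of the membrane regulators 3 of 4 fell: Cr1l by 0.66 (FDR 0.000429), Cd59a by 0.73 (FDR 0.00516) and Cd59b by 2.25 (FDR 4.36e-06). Cd59b was at 2.72 to 3.41 CPM in no tumor, 0.585 to 0.696 CPM in KPC and 1.94 to 3.05 CPM in KPC IL6KO libraries. Of the receptors 1 of 5 fell, the complement receptor chain Itgax, by 2.10 (FDR 0.00103), from 0.451 to 0.820 CPM in no tumor to 0.0818 to 0.188 CPM in KPC libraries. Itgam, the most abundant receptor gene, had a log2 fold change of 0.00 (FDR 0.993).

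Against KPC IL6KO, 9 of these 22 genes fell (C1ra, C1s1, Colec12, C8g, Vtn, Clu, Cd59a, Cd59b and Itgax) and 1 rose, the membrane cofactor Cd46, by 1.09 on the log2 scale (FDR 0.0118). Over all genes 27.3% fell and 26.4% rose in this comparison. Cd46 was at low levels throughout, 0.274 to 1.21 CPM. In KPC IL6KO against no tumor none of the 22 was called by edgeR's quasi-likelihood test, its likelihood ratio test or DESeq2, with 1 of 22 under an unadjusted 0.05.

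**Figure D2:**
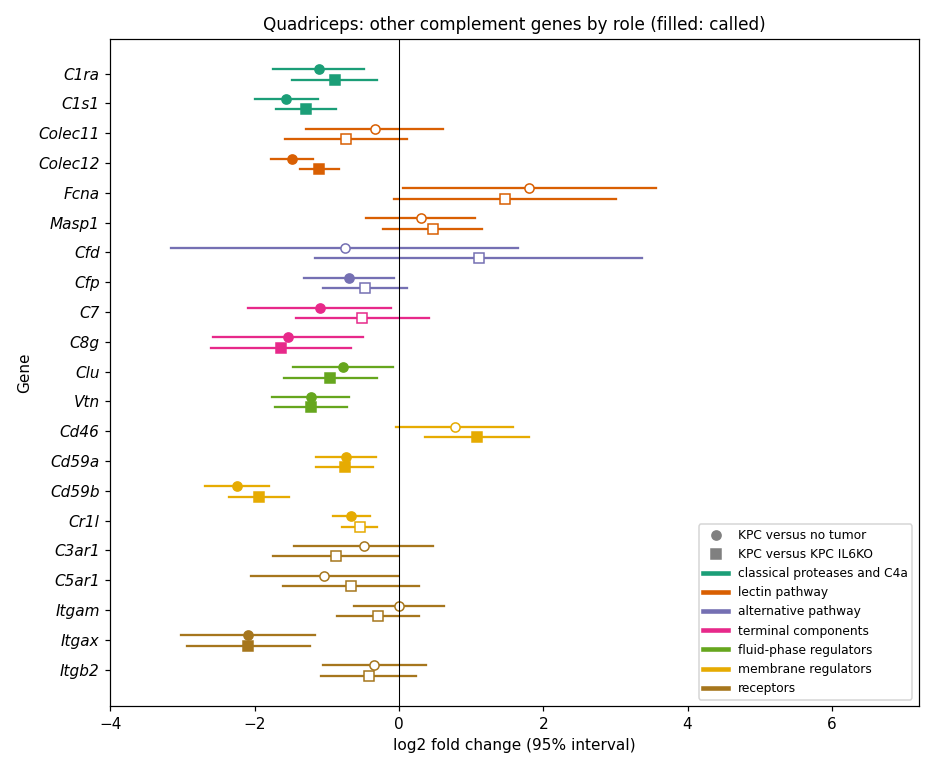
Log2 fold changes with 95% intervals of other complement genes in quadriceps, coloured by role; circles compare KPC with no tumor, squares compare KPC with KPC IL6KO, and filled symbols were called. The filled symbols lie left of 0 in both comparisons except for Cd46 against KPC IL6KO.

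Of the marker genes of cell types that transcribe complement, those of fibroblasts fell as well and those of macrophages were mixed. The part of these markers in the results was not tested. In bulk tissue, fewer cells of a type and less RNA per cell cannot be told apart. The 7 fibroblast markers all fell in KPC quadriceps, with a summed level of 166 to 286 CPM against 1011 to 1120.4 in no tumor and 572 to 865 in KPC IL6KO. Their most abundant gene, Dcn, fell by 0.70 on the log2 scale (FDR 0.00270).

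The macrophage markers were mixed. Of the 9 measured, Adgre1 (-1.54) and Mrc1 (-0.96) fell, Cd68 (3.22) and Cd14 (1.63) rose and 5 did not pass the test, among them Lyz2 (-0.40). Their summed level was 42.9 to 155 CPM in KPC and 86.6 to 121 CPM in no tumor libraries. KPC 1, the library with the highest C1q, had the highest of these sums, and KPC 4, with the lowest C1q, had the lowest. KPC 3 did not follow this order, with 137 CPM of macrophage markers, above every no tumor library, and less of each C1q gene than every no tumor library. Neutrophil genes S100a8, S100a9, Csf3r and Retnlg rose and Mmp9 fell, at a summed 5.65 to 22.6 CPM against 2.98 to 4.51 in no tumor.

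In epididymal fat, per kilobase, C3 led (107 ± 77.2 CPM per kb in no tumor, SD, n = 4), followed by Serping1 (99.4 ± 41.5), and these lay within 1 SD of each other. C1qb (55.8 ± 32.3), C1qa (54.2 ± 29.0), C4b (49.2 ± 41.6), C2 (47.0 ± 50.6), C1qc (39.1 ± 23.2) and Cfb (38.4 ± 37.3) could not be ordered beyond their spread, and Cd55 was the lowest (9.07 ± 7.13). Levels of the tissues come from separate tables and were not compared.

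Over all 12 fat libraries, no member was called in any comparison by edgeR's quasi-likelihood test, and neither was any other gene (0%). At an unadjusted p under 0.05 there were 2061 genes in KPC, 1584 in KPC IL6KO and 1062 between the tumor groups. Of the 9 members 3 passed that level in KPC, 6 in KPC IL6KO and 0 between the tumor groups. The likelihood ratio test called 0 members in each comparison, where over all genes it called 268 higher (1.58%) and 145 lower in KPC, 209 higher (1.23%) and 0 lower in KPC IL6KO, and 7 higher and 59 lower between the tumor groups. DESeq2 called 1 member, C4b in KPC IL6KO, where it called 281 genes higher (1.66%) and 4 lower. Its calls numbered 364 higher (2.16%) and 221 lower for KPC, and 19 and 106 between the tumor groups. The members' median log2 fold change was 1.20 in KPC and 1.4998 in KPC IL6KO, against -0.10 and -0.03 over all genes.

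**Figure D3:**
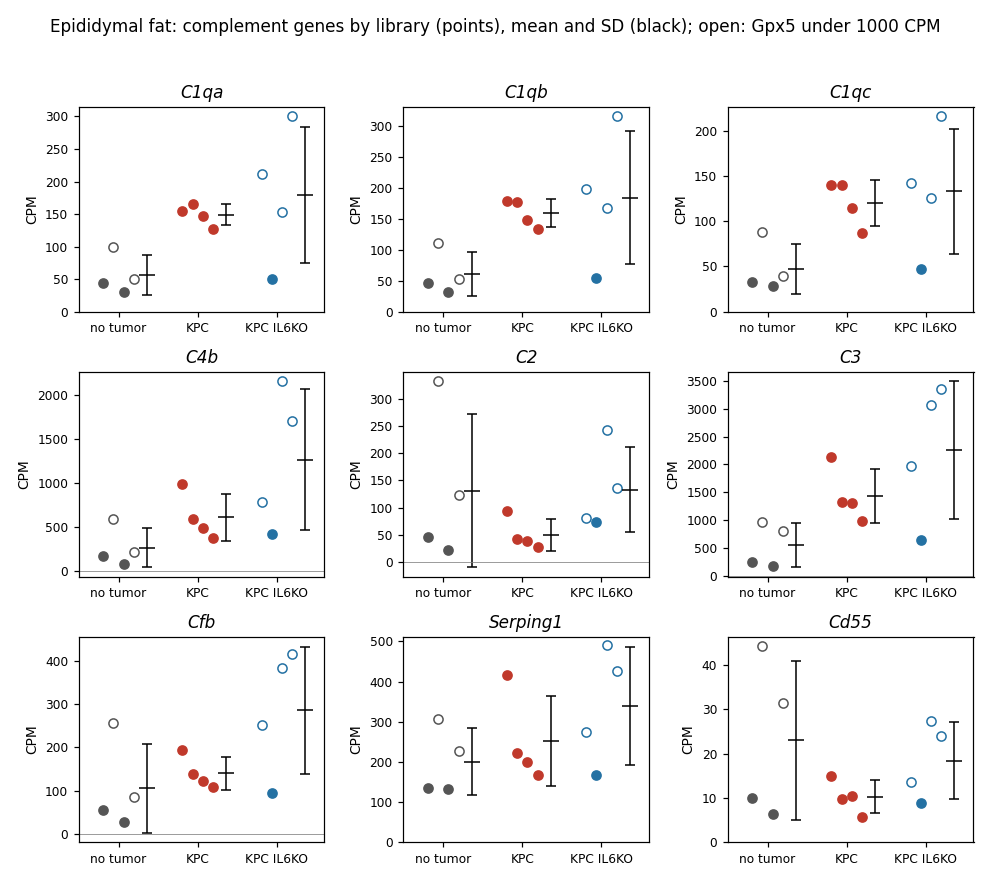
Epididymal fat CPM of the 9 complement genes in each library, by group (4 mice each), with black bars for the mean and SD; open points are the 5 libraries with Gpx5 under 1000 CPM. All 4 KPC points lie above all 4 no tumor points for C1qa, C1qb and C3, and the KPC IL6KO libraries spread widely, with the filled point of that group (KPC IL6KO 6) its lowest for each of the 9 genes.

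C1qa was at 44.7, 99.9, 30.5 and 50.4 CPM in no tumor 5 to 8, 155, 165, 147 and 128 in KPC 5 to 8, and 212, 50.7, 154 and 301 in KPC IL6KO 5 to 8. Every KPC library was above every no tumor library, and KPC IL6KO 6 lay among the no tumor libraries. The log2 fold change was 1.40 in KPC (SE 0.48, FDR 0.301, 2.64-fold) and 1.67 in KPC IL6KO (SE 0.48, FDR 0.394, 3.18-fold). C1qb separated KPC from no tumor in the same way, at 31.8 to 112 CPM in no tumor, 134 to 179 in KPC and 54.8 to 316 in KPC IL6KO, and log2 fold changes of 1.39 and 1.60. C1qc was at 27.9 to 88.3, 86.9 to 140.4 and 47.3 to 217 CPM, with 1.36 and 1.4998. The ratio of C1qa to C1qb lay between 0.866 and 1.07 in all 12 libraries.

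C3 was at 244, 961, 175 and 813 CPM in no tumor, 2134, 1320.1, 1311 and 993 in KPC, and 1969.6, 637, 3075 and 3348 in KPC IL6KO. KPC and no tumor did not overlap, although KPC 8 was near no tumor 6. The log2 fold change was 1.39 in KPC (SE 0.64, FDR 0.414) and 2.04 in KPC IL6KO (SE 0.65, FDR 0.400). Groups did not overlap for 3 of the 9 members (C1qa, C1qb and C3) in KPC against no tumor, where 10.9% of all genes did not and 0% were called.

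C4b was at 170.1, 589.7, 83.3 and 215 CPM in no tumor, 987, 589, 488 and 375 in KPC, and 778, 425, 2152 and 1700.0 in KPC IL6KO. Its log2 fold change of 2.26 in KPC IL6KO (SE 0.66, FDR 0.394, 4.78-fold) was the largest of the 9 in either tumor group, and DESeq2 called it (FDR 0.0311). In KPC it was 1.20 (SE 0.64, FDR 0.495), with no tumor 6 among the KPC libraries.

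C2 and Cd55 did not share this direction in KPC. C2 was at 45.7, 332, 22.02 and 124 CPM in no tumor, 93.1, 41.8, 37.7 and 28.0 in KPC, and 81.1, 72.8, 243 and 135 in KPC IL6KO. Cd55 was at 9.82, 44.4, 6.32 and 31.3 CPM in no tumor, 14.9, 9.77, 10.4 and 5.72 in KPC, and 13.5, 8.74, 27.3 and 23.9 in KPC IL6KO. For both genes the 4 highest values lay in libraries with little Gpx5, no tumor 6 and 8 and KPC IL6KO 7 and 8. The log2 fold changes in KPC were -1.38 for C2 (95% interval -3.03 to 0.27) and -1.17 for Cd55 (-2.48 to 0.14).

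Cfb was at 55.5, 255, 26.9 and 84.4 CPM in no tumor, 195, 138, 121 and 108 in KPC, and 251, 93.3, 383 and 417 in KPC IL6KO, with log2 fold changes of 0.41 and 1.44. Serping1 was at 135, 306, 131 and 227 CPM in no tumor, 416, 221, 199.6 and 167 in KPC, and 275, 167, 492 and 426 in KPC IL6KO, with 0.33 and 0.76. Both groups' values overlapped those of no tumor for each gene. Comparing KPC with KPC IL6KO, all 9 log2 fold changes were negative, from -0.14 (C1qc) to -1.41 (C2), and none was called by any of the 3 tests.

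**Figure D4:**
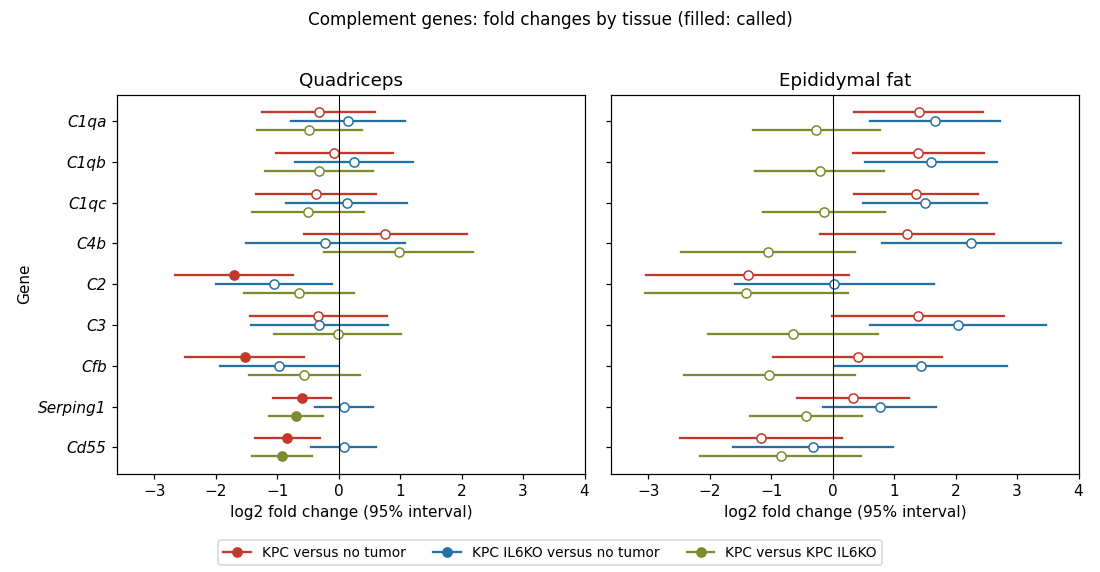
Log2 fold changes with 95% intervals of the 9 complement genes in quadriceps (left) and epididymal fat (right) for the 3 comparisons, with filled points for called genes. In quadriceps the filled points are C2, Cfb, Serping1 and Cd55 against no tumor and Serping1 and Cd55 against KPC IL6KO; in fat no point is filled and the intervals are wider.

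Gpx5 was high in all 4 KPC, 2 no tumor and 1 KPC IL6KO libraries, so the fat comparison was also made within the 7 libraries that held Gpx5 above 1000 CPM. These sets of libraries were defined from the data, not by the study. No tumor 6 and 8, left out here, held more of each of the 9 members than no tumor 5 and 7. The fold changes in this set are therefore against the lower no tumor libraries. Here 4 of 9 members rose in KPC (4 libraries against 2) and none fell, where 2.02% of all genes rose and 0.301% fell. C1qa rose by 2.08 on the log2 scale (SE 0.19, FDR 0.0211, 4.24-fold), C1qb by 2.13 (SE 0.20, FDR 0.0211, 4.37-fold), C1qc by 2.08 (SE 0.24, FDR 0.0256, 4.23-fold) and C3 by 2.88 (SE 0.37, FDR 0.0302, 7.34-fold). C4b (2.37, FDR 0.0596) and Cfb (1.88, FDR 0.0526) were near the threshold. C2 (0.67) and Cd55 (0.44) turned positive in this set and were not called.

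With the mean log2 level of the epididymis genes as a covariate over all 12 libraries, 6 of 9 members rose in KPC and none fell, where 3.15% of all genes rose and 0.542% fell. These were C3 by 2.47 (SE 0.29, FDR 0.00692, 5.55-fold), C4b by 2.07 (SE 0.46, FDR 0.0384), C1qb by 2.03 (SE 0.30, FDR 0.00961), C1qa by 2.01 (SE 0.31, FDR 0.0100), C1qc by 1.96 (SE 0.29, FDR 0.00907) and Cfb by 1.48 (SE 0.35, FDR 0.0471). C2 (-0.14) and Cd55 (-0.15) were then near 0. With the covariate no gene was called in KPC IL6KO against no tumor, and the log2 fold changes of KPC against KPC IL6KO turned positive for 8 of 9 members, none of them called.

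**Figure D5:**
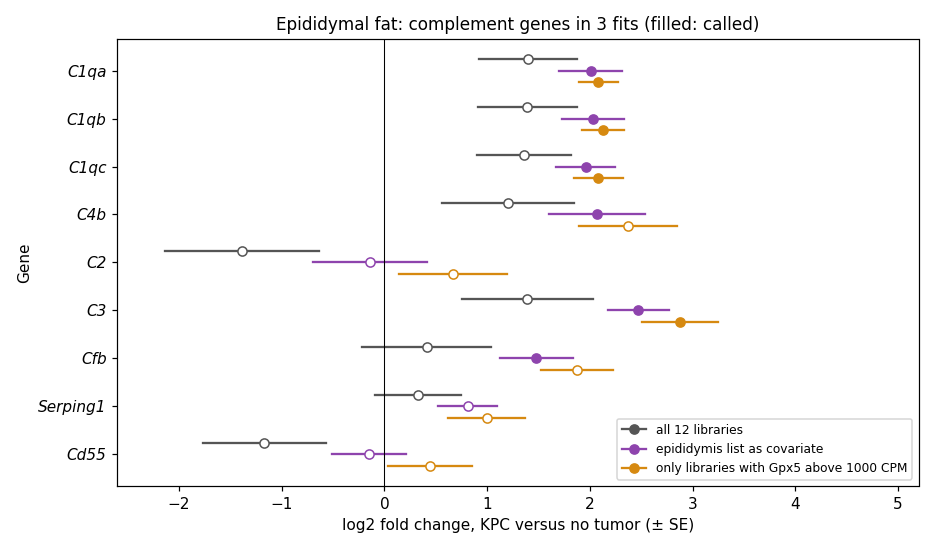
Log2 fold changes (points) with 1 SE to each side (lines) of the 9 complement genes in fat, KPC against no tumor, in the fit of all 12 libraries, the fit with the epididymis genes as a covariate, and the 7 libraries with Gpx5 above 1000 CPM; filled points were called. The C1q genes and C3 are filled in both of the latter fits, and C4b and Cfb in the covariate fit.

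The other complement genes in fat gave 0 calls of 37 in each comparison by the quasi-likelihood test, with 9 under an unadjusted 0.05 in KPC, 12 in KPC IL6KO and 5 between the tumor groups. In KPC the likelihood ratio test and DESeq2 each called 3, all higher, where 1.58% and 2.16% of all genes were called higher: factor I (Cfi), which degrades C3b, the lectin Fcna, and Vsig4, a macrophage receptor for C3b. Fcna, the most abundant lectin pathway gene, ranged from 21.3 to 45.8 CPM without a tumor and from 72.9 to 106 CPM in KPC libraries (log2 fold change 1.39). Cfi ranged from 2.70 to 13.3 CPM without a tumor and from 39.9 to 124 CPM in KPC libraries, and Vsig4 at 0.0697 to 1.63 and 7.68 to 20.4 CPM, both named here after their values were seen.

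Within the libraries with Gpx5 above 1000 CPM 9 of 37 rose and none fell, among them Fcna, Colec12, Cfp, Vsig4 and the receptor genes C3ar1, C5ar1, Itgam and Itgb2, by 1.31 (Fcna) to 6.04 (Vsig4) on the log2 scale. With the covariate 8 of 37 rose and none fell, among them Colec12, Cfp, Cfi, C5ar1, Itgam, Itgb2 and Vsig4. Anaphylatoxin receptor C5ar1 rose by 3.10 (FDR 0.0305) in the first and by 2.80 (FDR 0.00961) in the second. These genes too were named after their values were seen.

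The most abundant genes of the remaining roles showed no shared direction over all 12 libraries. C1s1 had a log2 fold change of -0.25 in KPC, Cfd -1.39, C7 -0.88, Cr1l 0.02 and Itgam 2.41. Clu, at 755 to 7650 CPM in no tumor and 8054 to 11355 CPM in KPC libraries, had 1.31 and was not called. It was at 6663 CPM or more in the 7 libraries rich in Gpx5 and at 7290 CPM in KPC IL6KO 5, and at 1570 CPM or less in the other 4.

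Macrophage and neutrophil markers had positive log2 fold changes in KPC fat, as did 7 of the 9 members, all but C2 and Cd55. The part of these cell types in the result was not tested. The 10 macrophage markers summed to 263 to 919 CPM in no tumor, 1019.7 to 1705 in KPC and 406 to 2518 in KPC IL6KO, all 10 had positive log2 fold changes in KPC, and none was called over all 12 libraries. In both of the other fits 6 of these 10 rose and none fell. Lyz2, the most abundant of them, rose by 2.38 (FDR 0.0256) within the libraries with Gpx5 above 1000 CPM and by 2.21 (FDR 0.0120) with the covariate, near the values of the C1q genes. Neutrophil markers summed to 4.91 to 14.6 CPM in no tumor and 27.5 to 59.5 CPM in KPC, and mesothelium markers to 447 to 1000.2 and 1194 to 2638 CPM. The 4 measured markers of pancreas and stomach epithelium summed to 8.06 to 17.7 CPM in no tumor, 19.7 to 89.1 in KPC and 7.75 to 61.1 in KPC IL6KO, and 2 of them rose in KPC with the covariate. Muscle fiber markers summed to 17.6 to 304 CPM in no tumor, 14.2 to 18.4 in KPC and 103 to 2905 in KPC IL6KO, and 7 of 9 were lower in KPC than in KPC IL6KO by the likelihood ratio test. The part of these markers in the results was not tested either.

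To ask whether the tumor's effect differed between tissues, the log2 fold changes were compared directly in all 23 libraries over the 12599 genes in both tables. For KPC against no tumor 2 of 9 members were called, both lower in quadriceps than in fat: C1qa, with a difference of -1.83 (SE 0.68, FDR 0.0385), and C1qc, with -1.84 (SE 0.68, FDR 0.0387). Over all genes 18.8% were called in this direction and 18.1% in the other. Cfb (-2.04, FDR 0.0581), C1qb (-1.57, FDR 0.0782), C3 (-1.81, FDR 0.104) and Serping1 (-1.03, FDR 0.112) had negative differences that did not pass. The likelihood ratio test called 3 of 9 members, with Cfb added (FDR 0.0343), where it called 2497 of the 12599 genes lower and 2326 higher.

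The quasi-likelihood calls were not stable, since the number of members called ranged from 0 to 5 as single libraries were left out. It was 0 in 10 of those 23 fits and 5 without fat no tumor 6. C2 (-0.42) and Cd55 (0.24) had wide intervals of the difference (-2.38 to 1.54 and -1.23 to 1.70). For KPC IL6KO against no tumor 0 of 9 were called by the quasi-likelihood or likelihood ratio test, with 4 of 9 under an unadjusted 0.05 by the former, and 0% of all genes were called (1003 under an unadjusted 0.05). For KPC against KPC IL6KO 0 of 9 were called by both tests, 1 with an unadjusted p under 0.05, where 17.2% of all genes were called higher and 14.4% lower.

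For each member the genes whose log2 CPM followed it most closely over all libraries of a tissue were sought by Pearson's r in the set whose log2 CPM averaged 1 or more (10511 in quadriceps, 13907 in fat). The groups are pooled in these values, so they hold group differences and library composition as well as variation within groups. In quadriceps (11 libraries) C1qa, C1qb and C1qc were followed most closely by Pld4, Itgb2, Lyz2, Laptm5 and Fcgr3, at r of 0.956 to 0.981. In fat (12 libraries) they were followed by Tbxas1, Spi1, Tnfaip8l2, C5ar1 and Kcnk6, at 0.979 to 0.990.

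The other members had different neighbours. In quadriceps C2 was nearest to Lgals12 (0.984), Cfb to Mpp1 (0.948), Serping1 to Adgre1 (0.959) and Cd55 to Rnf150 (0.976), while C3 (Apoe, 0.886) and C4b (Ifngr1, 0.914) had no neighbour above 0.92. In fat C2 was nearest to Ifi27 (0.984), C3 to Casp4 (0.976), C4b to Ifi205 (0.980), Cfb to Meox1 (0.975), Serping1 to Eln (0.971) and Cd55 to Bnc2 (0.970). Meox1 was among the 3 nearest genes of both C4b and Cfb in fat, and Arpc1b of both C2 and Cfb in quadriceps.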

How the data were processed

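Quadriceps and epididymal fat were profiled in 23 mice. Per the labels and the study's methods, the authors sequenced strand-specific paired-end libraries, aligned reads to mm10 with STAR and deposited raw counts per gene from featureCounts 1.5.1 in Subread, 1 table per tissue. Their processing notes also name FastQC and edgeR 3.12.1. The strand setting of the counting was not given in the sources used here. The authors removed 1 no tumor quadriceps library as an outlier.

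The counts were tested with edgeR 4.0.16 (R 4.3.3) by quasi-likelihood F tests with TMM scaling, the 3 groups of a tissue in 1 fit. filterByExpr removed no gene. P-values were adjusted by the Benjamini-Hochberg method over all genes. The tissue difference was tested as an interaction over all 23 libraries. Standard errors are the log2 fold change divided by the square root of F. Alternatives were the likelihood ratio test, DESeq2 1.42.0, RLE scaling, other filters, leaving out each library, and for fat the epididymis genes. Likeness used log2 CPM with a prior count of 2. Each mouse gave 1 library and no pair held the same counts within sampling noise.

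Named were the 9 members, the other complement genes called, the most abundant gene of each role, selected markers, and for each member its nearest genes by correlation. The members and lists were chosen with earlier results of these data known. Tests were checked on simulated counts. Some items are not reported here.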

Additional observations from a re-analysis of the deposited data

Results flagged for a closer look

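The effect of a KPC tumor differed between quadriceps and fat for 2 members, by the interaction term of edgeR's quasi-likelihood test over all 23 libraries. That is 2 of 9, where 18.8% of all genes were called in this direction, and 10 of the 23 fits that left out 1 library called 0 members. For C1qa the quadriceps log2 fold change minus that of fat was -1.83 (FDR 0.0385), from -0.32 in quadriceps and 1.40 in fat. For C1qc it was -1.84 (FDR 0.0387), from -0.37 and 1.36. Fat was higher in all 4 KPC libraries than in all 4 no tumor libraries for C1qa, while the quadriceps groups overlapped for both genes. Tissues came from different mice and separate preparations, so tissue and preparation cannot be told apart. Among the 45 groups of 4 libraries tested, 0 held a library far enough from the others to be singled out by Dixon's test.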

How the results depend on the processing

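Outside of leaving out single libraries, 492 of the values under an alternative kept their direction and side of the threshold, 15 reversed, 12 passed the threshold and 3 no longer did. Those 3 were Serping1 in quadriceps KPC against no tumor, at -0.56 with DESeq2, -0.56 with RLE scaling and -0.57 with only the 2 groups fitted. In fat KPC against no tumor, other complement genes called numbered 3 by the likelihood ratio test, 3 by DESeq2 and 2 with only the 2 groups fitted. With the epididymis covariate 6 members and 8 others were called, and within the libraries with Gpx5 above 1000 CPM 4 members and 9 others, where C2 (0.67) and Cd55 (0.44) reversed. In fat KPC IL6KO against no tumor, 1 other gene was called by the likelihood ratio test, and 1 member and 4 others by DESeq2; C2 reversed to -0.0074 with DESeq2, -0.0073 with RLE scaling and -0.00047 with at least 10 counts in every library. In fat KPC against KPC IL6KO the covariate reversed C1qa (0.90), C1qb (0.97), C1qc (0.93), C3 (0.93), C4b (0.25), Cfb (0.45), Serping1 (0.38) and Cd55 (0.39). In quadriceps KPC against KPC IL6KO C3 reversed to 0.0054 with DESeq2 and 0.0056 with RLE scaling. For the tissue difference in KPC against no tumor, Cfb (-2.04) passed the threshold with the likelihood ratio test. The cause was not tested in any of these.

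Leaving out single libraries, 1169 values were of the same direction and side, 33 reversed, 14 passed the threshold and 26 no longer did. Members called ranged from 3 to 6 in quadriceps KPC against no tumor, with 8 to 12 others. The 3 came without no tumor 2 or 3 or without KPC 2, 3 or 4, and the 6 without KPC 1. Against KPC IL6KO they ranged from 2 to 5 (without KPC 1), with 10 to 13 others. For the tissue difference they ranged from 0 to 5 in KPC against no tumor, and from 0 to 1 (without quadriceps KPC 4) in KPC against KPC IL6KO. Log2 values that reversed ranged, in quadriceps KPC against no tumor, from -0.66 to 0.19 for C1qb, and against KPC IL6KO from -0.35 to 0.27 for C3. In quadriceps KPC IL6KO against no tumor they ranged from -0.017 to 0.38 for C1qc, -0.52 to 0.053 for C4b, -0.016 to 0.26 for Cd55 and -0.026 to 0.28 for Serping1. In fat they ranged from -0.029 to 0.61 for Serping1 in KPC against no tumor, from -0.46 to 1.06 for C2 and -0.63 to 0.21 for Cd55 in KPC IL6KO against no tumor, and from -0.58 to 0.10 for C1qa, -0.51 to 0.18 for C1qb and -0.42 to 0.20 for C1qc between the tumor groups. Tissue differences ranged from -1.43 to 0.057 for C2 and -0.28 to 0.55 for Cd55 in KPC, from -0.050 to 0.76 for Cd55 in KPC IL6KO, and from -0.84 to 0.061 for C1qb and -0.50 to 0.029 for Cd55 between the tumor groups.

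The numbers were not taken to pair the libraries, since not every same-numbered pair deviated together: 2 of 10 pairs in quadriceps and 7 of 12 in fat had a correlation of deviations over 0.1 (-0.155 to 0.265 and -0.539 to 0.650). With the replicate number as a block, members called were 4, 0 and 2 in the 3 quadriceps comparisons, with 11, 0 and 10 others, and 0 in each fat comparison. The biological coefficient of variation was 63.5% in fat and 22.7% in quadriceps, and the intervals in fat were wider.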
